A study of Mus musculus with 12 samples.

Results

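The 7 adrenergic receptor genes described here were the rows of the count table named Adra1a, Adra1b, Adra1d, Adra2a, Adra2b, Adra2c and Adrb1, out of 55418 genes in all, and they were chosen by name. Other adrenergic receptor genes were not analysed here. The brainstem (medulla and pons) of 12 outbred CFW mice was collected on postnatal day 15, and each mouse gave 1 RNA library. The 6 morphine mice (3 females and 3 males) had received 15 mg/kg morphine under the skin 2 times per day from postnatal day 1 to 14, the 6 saline mice (3 females and 3 males) had received saline, and tissue was taken 16 h after the last injection. Mice are named by treatment, sex and the number in the labels, which runs from 1 to 6 within each treatment. By the paper's mixed-litter design, pups within a litter were assigned at random to saline or morphine. No label gives the dam, so litter mates cannot be told apart from unrelated mice, and litter could not be included in the fits.

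Adrenergic receptors are the G protein-coupled receptors for noradrenaline and adrenaline. The α1 receptors (Adra1a, Adra1b, Adra1d) act through Gq and phospholipase C to raise intracellular calcium, the α2 receptors (Adra2a, Adra2b, Adra2c) act through Gi and Go to lower cyclic AMP, and the β1 receptor (Adrb1) acts through Gs to raise it. The pons holds the locus coeruleus, the main source of noradrenaline in the brain, whose neurons fire strongly in opioid withdrawal, and the α2 agonist clonidine is given against withdrawal signs. The α2A receptor encoded by Adra2a is the main inhibitory autoreceptor on noradrenergic neurons.

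The relatedness of the 7 genes bears on how far reads can be told apart between them. The same stretch of coding sequence is shown from each gene, read 5′ to 3′ on the coding strand from GENCODE M21 transcripts on GRCm38. The capitals mark the codons of the aspartate-arginine-tyrosine motif at the inner end of the third membrane helix, a hallmark of this receptor class, and each stretch lies within 1 exon.
Adra1a (chr14:66637914-66637982, plus strand): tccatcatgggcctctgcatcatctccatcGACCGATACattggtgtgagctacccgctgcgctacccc
Adra1b (chr11:43835627-43835695, minus strand): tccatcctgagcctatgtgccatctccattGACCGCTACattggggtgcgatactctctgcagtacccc
Adra1d (chr2:131561572-131561640, minus strand): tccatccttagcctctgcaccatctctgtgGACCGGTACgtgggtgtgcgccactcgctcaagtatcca
Adra2a (chr19:54046617-54046685, plus strand): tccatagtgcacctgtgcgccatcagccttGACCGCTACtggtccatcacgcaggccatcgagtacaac
Adra2b (chr2:127363874-127363942, plus strand): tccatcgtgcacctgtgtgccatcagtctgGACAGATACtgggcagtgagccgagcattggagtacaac
Adra2c (chr5:35280297-35280365, plus strand): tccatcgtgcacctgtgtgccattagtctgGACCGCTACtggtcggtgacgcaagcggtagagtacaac
Adrb1 (chr19:56722804-56722872, plus strand): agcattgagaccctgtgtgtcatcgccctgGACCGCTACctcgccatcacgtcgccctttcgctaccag

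Over these 69 bases, Adra2b and Adra2c were identical at 58 (84.1%), Adra2a and Adra2c at 57 (82.6%) and Adra1a and Adra1b at 54 (78.3%), while Adra1d and Adrb1 shared the fewest, 32 (46.4%). Across the whole transcripts, no stretch of 100 bases, the read length, was shared between a receptor gene and any other gene, with 1 exception. Adra1d shares 147 exon bases, 7.74% of its exons, with the antisense gene Gm14285 on the opposite strand. A strand setting for the counting was not given in the sources used here, so reads in that overlap cannot be assigned, and the counts of Adra1d are uncertain to that extent.

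The receptor genes differ in structure and in base composition. Adra2a (chromosome 19, 54044151 to 54048982), Adra2b (chromosome 2, 127363208 to 127367221) and Adra2c (chromosome 5, 35278319 to 35281763) each form 1 exon block. Adra1a (chromosome 14, 66635251 to 66771168) and Adra1b (chromosome 11, 43774606 to 43901210) have 5 exon blocks each, Adra1d (chromosome 2, 131545850 to 131562283) has 2 and Adrb1 (chromosome 19, 56722199 to 56733113) has 3. The GC content of the longest transcript was highest in Adra2c (65.5%) and Adra1d (65.4%), followed by Adrb1 (58.8%), Adra2a (58.6%), Adra1b (54.5%), Adra2b (53.6%) and Adra1a (50.1%), against a median of 49.1% over the genes tested. The coding parts of all 7 lay between 54.6% and 68.6%. In the untranslated part, Adra1d (71.4%) and Adra2c (65.3%) stood above the others, which lay between 47.9% and 55.9%.

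Library totals ran from 27850565 to 48097947 counts, with a median of 33214511. Brainstem markers were present in every library, with the glycine transporter gene Slc6a5 at 479 to 638 CPM (counts scaled to a fixed library total after TMM normalization) and Tph2 of serotonergic raphe neurons at 20.2 to 41.6 CPM. The extraction text names spinal cords, but the 6 thoracic to lumbar Hox genes together summed to at most 0.553 CPM, and of the forebrain markers Emx1 was at 0.153 CPM at most and Neurod6 at 7.02 to 13.2 CPM. Xist, the RNA that coats the silenced X chromosome, was at 547 to 970 CPM in females and 0.398 to 2.71 CPM in 5 males, while the library labelled morphine male 6 had 380 CPM. The Y-linked Ddx3y was at 12.8 CPM in that library, 118 to 199 CPM in the other males and 0.0576 to 0.729 CPM in females. The library was kept in its labelled group, and values without it are given with the results for males and for the interaction. Saline males 1 and 2 on one side and saline male 3 on the other stood furthest apart in the balance of GC-rich and GC-poor genes, as described with the results it touches.

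Adra2a was the most abundant receptor transcript and Adra2b the least, and this order was the same whether or not levels were scaled to length. Levels of different genes were compared as CPM per kilobase of exon, averaged over the 12 mice. Adra2a had 7.53 CPM per kb (range 6.54 to 8.73), Adra1b 3.76 (2.36 to 6.32) and Adra1a 1.79 (1.33 to 2.01). These ranges did not overlap, and in each of the 12 mice Adra2a lay above Adra1b, Adra1b above Adra1a and Adra1a above Adrb1. Adrb1 at 1.04 CPM per kb (0.649 to 1.31), Adra1d at 0.886 (0.226 to 2.11) and Adra2c at 0.855 (0.302 to 1.46) did not differ beyond their spread. Adrb1 was above Adra1d in 8 of 12 mice, and Adra1d was above Adra2c in 6 of 12. Adra2b, at 0.103 CPM per kb (0.0379 to 0.171), was lowest in every mouse, with Adra2c 8.33 times higher.

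The place of Adra1a depended on the length used. Its exons cover 8728 bases over 6 annotated transcripts, of which the longest has 4282. With the longest transcript as the length, Adra1a was at 3.64 CPM per kb and Adra1b at 3.82, and Adra1b was higher in 6 of 12 mice, so that the 2 could not be ordered.

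**Figure D1:**
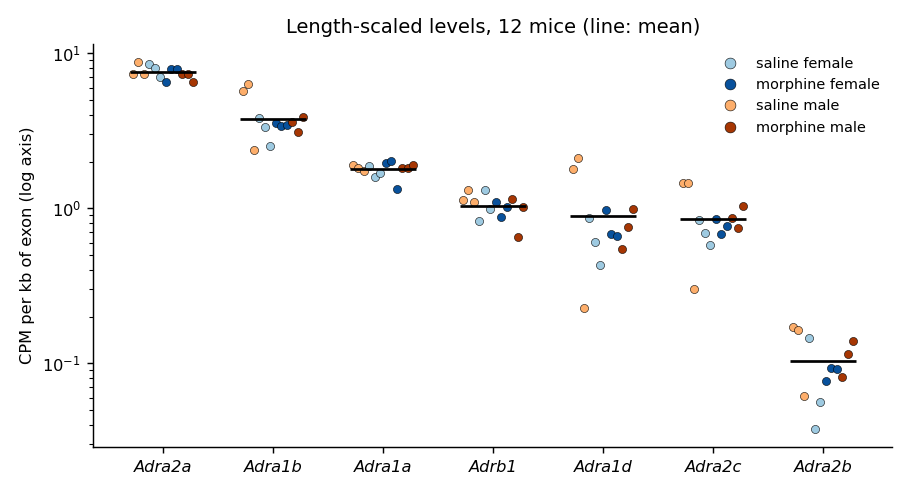
Length-scaled level (CPM per kilobase of exon, log axis) of each receptor gene, with 1 point per mouse coloured by group and a line at the mean of 12 mice. Adra2a lies highest at a mean of 7.53 and Adra2b lowest at 0.103, and the points of Adrb1, Adra1d and Adra2c overlap.

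By class, the α2 genes made up 53.7% ± 4.38 (SD, n = 12) of the summed length-scaled level of the 7 genes, the α1 genes 39.8% ± 4.80 and Adrb1 6.57% ± 1.26. These shares use all exon bases as the length. With the longest transcript Adra1a was at 3.64 in place of 1.79 CPM per kb, which raises the α1 share and lowers the α2 share. With that length the means were 7.53, 0.855 and 0.103 CPM per kb for Adra2a, Adra2c and Adra2b. They were 3.82, 3.64 and 0.886 CPM per kb for Adra1b, Adra1a and Adra1d. Shares with that length were not computed, so the lead of the α2 class was shown for the exon length only. The α2 share was 53.6% ± 5.55 in saline mice and 53.7% ± 3.37 in morphine mice (SD, n = 6 each), and the difference was smaller than the spread within either group. Within saline males the α2 share ran from 45.9% to 58.8%, the widest range of the 4 groups. These values come from whole tissue, in which fewer cells of a type and less RNA per cell cannot be told apart.

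None of the 7 receptor genes was called between morphine and saline mice when the sexes were combined. A gene was called DE where its log2 fold change exceeded 0.26 in size and its unadjusted p lay under 0.05, by the quasi-likelihood test of edgeR with sex as a covariate. All 7 genes passed the filterByExpr filter on low counts in each of the 5 comparisons, and 0 of 7 were called in the sex-combined fit, against 1.19% of the 18608 genes tested. The count was also 0 at an unadjusted p under 0.05 alone, with edgeR's exactTest and with DESeq2. The median log2 fold change of the 7 was -0.10, beside -0.02 over all genes tested. In morphine mice 6 of the 7 were lower in value, as were 10682 of all genes tested, though with loess offsets for GC content and gene length Adra2c was at 0.12. The levels of the 2 treatments overlapped for all 7 receptor genes, as they did for all but 0.043% of genes tested. The count stayed at 0 without the library labelled morphine male 6, without saline male 3 and with saline males 1 and 2 both left out, but in the last of these fits Adra1b (0.26), Adra1d (0.68), Adra2b (0.36) and Adra2c (0.52) were higher in value in morphine mice.

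Adra1a, the α1A receptor gene, was steady across the groups apart from 1 mouse. In saline females it was at 16.3, 13.8 and 14.7 CPM and in saline males at 16.7, 15.8 and 15.3 CPM. In morphine females it was at 17.2, 17.5 and 11.6 CPM and in morphine males at 16, 15.9 and 16.5 CPM. Morphine female 3 was lowest of all mice, and the 11 others lay within 13.8 to 17.5 CPM. Morphine over saline gave a log2 fold change of 0.04 (SE 0.11, 95% interval -0.19 to 0.28), with an adjusted p of 1 from edgeR.

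Adra1b, the α1B receptor gene, was spread widely among saline males. It was at 19.4 and 21.4 CPM in saline males 1 and 2 and at 7.96 CPM in saline male 3, the highest pair and the lowest value of all 12 mice. The other 9 mice lay between 8.55 and 13.2 CPM, with morphine females at 12.0, 11.5 and 11.6, morphine males at 12.2, 10.5 and 13.2, and saline females at 13.0, 11.3 and 8.55. Its log2 fold change was -0.16 (SE 0.21, 95% interval -0.61 to 0.29).

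Adra1d, the α1D receptor gene, followed the same order of saline males. Saline males 1 and 2 had 3.40 and 4.00 CPM, saline male 3 had 0.429 CPM, and the other mice lay between 0.821 and 1.89 CPM. Morphine females had 1.84, 1.30 and 1.25 CPM, morphine males 1.04, 1.44 and 1.89 CPM and saline females 1.63, 1.15 and 0.821 CPM. Every morphine mouse lay inside the range of the saline mice. Its log2 fold change was -0.29 (SE 0.42, 95% interval -1.20 to 0.63), the widest interval of the 7 genes.

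**Figure D2:**
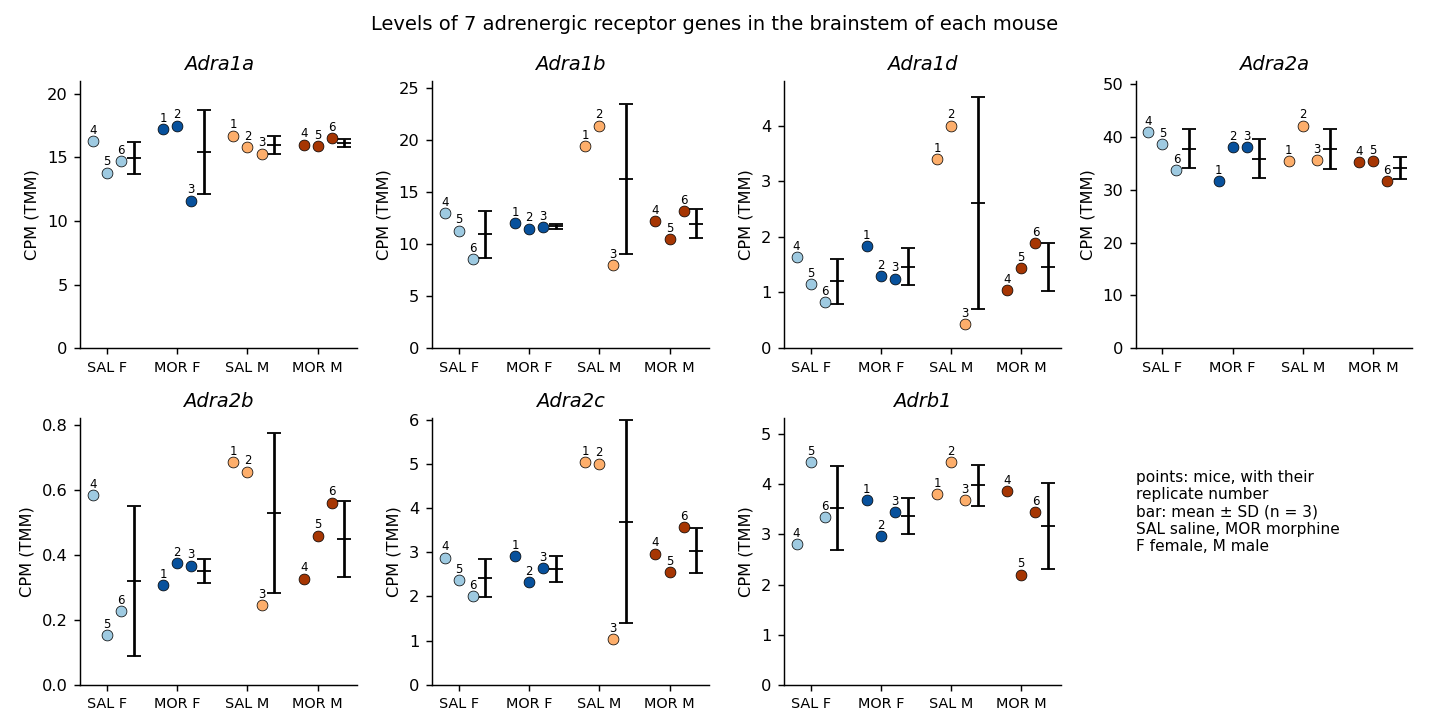
Level (CPM after TMM normalization, linear axis from 0) of each receptor gene in each mouse, with the replicate number beside the point and a bar for mean ± SD of the 3 mice of a group. Adra1b, Adra1d and Adra2c are highest in saline males 1 and 2 and lowest in saline male 3, while the other genes show less spread among saline males relative to their level or, for Adra2b, rest on few counts.

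Adra2a, the α2A receptor gene, had the narrowest interval. Its level was 41.0, 38.7 and 33.8 CPM in saline females and 35.5, 42.2 and 35.6 CPM in saline males. It was 31.6, 38.1 and 38.1 CPM in morphine females and 35.3, 35.4 and 31.7 CPM in morphine males. The treatments overlapped, with means of 35.0 ± 2.90 CPM in morphine mice and 37.8 ± 3.38 CPM in saline mice (SD, n = 6 each). The log2 fold change was -0.10 (SE 0.09), and the 95% interval of -0.28 to 0.09 reached just past the fold-change threshold on the lower side.

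Adra2b, the α2B receptor gene, rested on 5 to 30 counts per mouse. It was at 0.583, 0.152 and 0.226 CPM in saline females, 0.685, 0.656 and 0.245 CPM in saline males, 0.307, 0.375 and 0.367 CPM in morphine females and 0.327, 0.459 and 0.561 CPM in morphine males. The coefficient of variation over the 12 mice was 42.6%, and counting error alone would give 29.8%. Morphine mice differed by a log2 fold change of -0.07 (SE 0.35, 95% interval -0.81 to 0.68). This interval reached past the fold-change threshold on both sides, as did those of Adra1b, Adra1d and Adra2c. A change of the size of the threshold could therefore not be excluded in either direction for any of these genes. The interval of Adra1a reached past the threshold on the upper side only, and those of Adra2a and Adrb1 on the lower side only.

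Adra2c, the α2C receptor gene, was at 5.04 and 5.01 CPM in saline males 1 and 2 and at 1.04 CPM in saline male 3. The other mice lay between 2.01 and 3.57 CPM, with saline females at 2.88, 2.37 and 2.01, morphine females at 2.92, 2.33 and 2.64, and morphine males at 2.97, 2.56 and 3.57. As for Adra1b and Adra1d, all 6 morphine mice lay between saline male 3 and saline males 1 and 2. The log2 fold change was -0.08 (SE 0.30, 95% interval -0.71 to 0.56).

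Adrb1, the β1 receptor gene, was at 2.80, 4.44 and 3.34 CPM in saline females, 3.81, 4.44 and 3.68 CPM in saline males, 3.69, 2.97 and 3.45 CPM in morphine females and 3.86, 2.20 and 3.45 CPM in morphine males. Morphine male 5 was lowest and the groups overlapped. The log2 fold change was -0.19 (SE 0.17, 95% interval -0.55 to 0.17).

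In females alone, none of the receptor genes was called either. The count was 0 of 7, against 1.81% of 18109 genes tested, and it was 0 with exactTest, with DESeq2 and at p under 0.05 alone. The log2 fold changes ran from -0.08 for Adra2a (SE 0.11) to 0.28 for Adra1d (SE 0.32), with 5 higher and 2 lower in morphine females. Of all genes tested, 8721 were higher and 9388 lower. Omitting saline female 4 raised Adra1d to 0.56 and Adra2b to 0.85 and put Adrb1 at -0.22. Omitting saline female 5 put Adra2b at -0.20 and Adrb1 at 0.13, and omitting saline female 6 put Adra1d at 0.08. The median was 0.10, beside -0.01 over all genes tested. The 95% interval of Adra1b was -0.25 to 0.44 and that of Adra2a -0.33 to 0.17. Levels of morphine and saline females overlapped for all 7 genes, while 5.65% of genes tested did not overlap.

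In males alone, 0 of 7 receptor genes were called, against 2.99% of 18166 genes tested, and the count was 0 with exactTest, with DESeq2 and at p under 0.05 alone. Of the 7 genes, 6 were lower in morphine males, as were 11332 of all genes tested, and Adra1a was at 0.01 (SE 0.14). The median log2 fold change was -0.29, beside -0.06 over all genes tested. Adra1d had -0.85 (SE 0.69), Adra1b -0.44 (SE 0.35), Adrb1 -0.33 (SE 0.26), Adra2c -0.29 (SE 0.53), Adra2b -0.25 (SE 0.44) and Adra2a -0.15 (SE 0.14). Only Adra2a had levels in morphine males that all lay below those in saline males, by 35.4 against 35.5 CPM at the nearest pair, and 9.10% of genes tested did not overlap. With scaling by total counts Adra2a ran from 33.1 to 37.2 CPM in morphine males and from 34.0 to 40.1 CPM in saline males, which overlapped. With 3 mice against 3, the smallest p of a two-sided exact permutation test is 0.1. Without the library labelled morphine male 6 the count in males stayed at 0, with log2 fold changes of -0.53 for Adra1b, -1.09 for Adra1d and -0.43 for Adra2c.

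The sums of some marker lists of other cells did not overlap between treatments in males, while others did. The summed level of the 4 cerebellum markers was 32.7 to 65.5 CPM in morphine males and 22.5 to 25.2 CPM in saline males, and that of the 3 choroid plexus markers was 24.9 to 52.9 CPM against 21.1 to 23.4 CPM. The 4 oligodendrocyte markers summed to 21000 to 27500 CPM in morphine males against 28300 to 29200 CPM in saline males, and the 3 microglia markers to 88.1 to 90.6 CPM against 92.9 to 113 CPM. Their part in the values of the receptor genes and of Gnas was not tested.

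**Figure D3:**
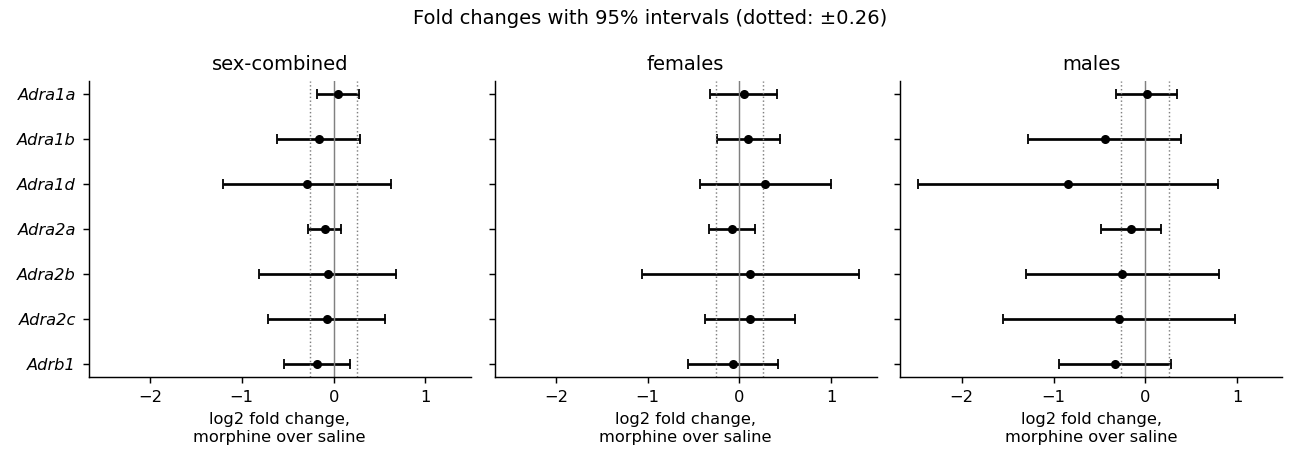
Log2 fold change of morphine over saline mice with its 95% interval for each receptor gene in the sex-combined, female and male fits, on 1 shared axis, with dotted lines at the fold-change threshold of 0.26. Every interval includes 0, and the intervals of Adra1d, Adra2b and Adra2c are wide, for Adra1d in males from -2.48 to 0.79.

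For Adra1b, Adra1d and Adra2c, the direction in males turned with the saline males that were in the fit. Without saline male 3, Adra1b (-0.73, SE 0.14), Adra1d (-1.31, SE 0.28) and Adra2c (-0.69, SE 0.21) were lower in morphine males and called, 3 of 7, with adjusted p values from edgeR's quasi-likelihood test of 0.0182, 0.022 and 0.0661. In that fit 28.6% of all genes tested were called. With saline males 1 and 2 both left out, a setting added after the data were seen, the same 3 genes were called in the other direction, at 0.55 (SE 0.22) for Adra1b, 1.73 (SE 0.52) for Adra1d and 1.51 (SE 0.36) for Adra2c. That fit has 1 saline male, which is assumed to vary like the morphine males, and 31.1% of genes tested were called in it. Adra1a stayed between 0.01 and 0.05, Adra2a between -0.16 and -0.09 and Adrb1 between -0.34 and -0.24 over these 3 fits.

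**Figure D4:**
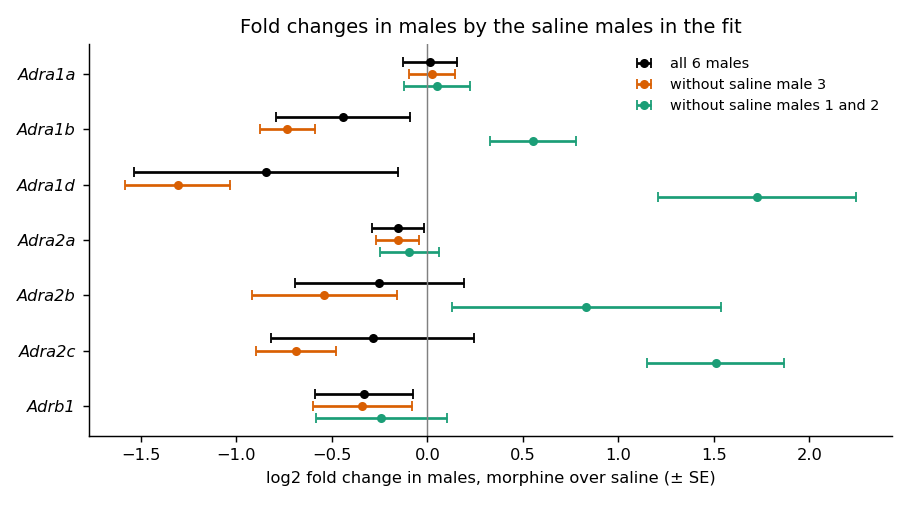
Log2 fold change (± SE) of morphine over saline males for each receptor gene with all 6 males, without saline male 3, and with saline males 1 and 2 both left out. Adra1b, Adra1d, Adra2b and Adra2c lie on opposite sides of 0 in the last 2 fits, and Adra1a, Adra2a and Adrb1 hardly move.

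The spread among saline males moved with the balance of GC-rich and GC-poor genes in the libraries. The base composition of the reads was not measured, and the cause of this balance was not tested. For each library an index was computed as the median log2 deviation from the mean of the 12 libraries in the 1861 genes with the highest GC content (at least 57.5%) minus that in the 1861 with the lowest (at most 40.7%). It was 0.91 in saline male 1, 1.18 in saline male 2 and -1.15 in saline male 3, and lay between -0.67 and 0.56 in the other 9. The index was chosen after the data were seen, and Adra1d, Adra2a, Adra2c and Adrb1 are themselves among its GC-rich genes. The permutation p values given with it are therefore a description and not an independent test.

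Over the 12 mice, the log2 level of Adra1b had a Pearson's r of 0.96 with this index (Spearman's rho 0.95, adjusted permutation p = 3.5e-05 and 0.00014 over the 7 genes, unadjusted 1e-05, the smallest that the permutations can give, and 2e-05). For Adra2c r was 0.96 (rho 0.91, permutation p = 1e-05 and 0.00019, adjusted 3.5e-05 and 0.000665) and for Adra1d 0.94 (rho 0.82, permutation p = 5e-05 and 0.00192, adjusted 0.000117 and 0.00336). Adra2b had an r of 0.78 (rho 0.82, permutation p = 0.00251 and 0.00176, adjusted 0.00439 and 0.00336). The relation was common among all genes: of the 18608 tested, 6.49% had an r at least as high as that of Adra1b, 6.66% as that of Adra2c, 10.7% as that of Adra1d and 23.0% as that of Adra2b. Without saline males 2 and 3, the libraries farthest out on the index, r was 0.92 for Adra1b, 0.96 for Adra2c, 0.85 for Adra1d and 0.75 for Adra2b. Adra1a (r 0.17, rho 0.29), Adra2a (0.23, 0.18) and Adrb1 (0.29, 0.29) showed no relation past the threshold, with adjusted permutation p values of r of 0.585, 0.546 and 0.503, though Adra2a and Adrb1 are also GC-rich. Leaving out the same libraries gave 0.19, -0.15 and 0.22 for these 3 genes. The labels give a single sequencing lane for all libraries, so no value within batches could be given.

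With loess offsets for GC content and gene length in the male fit, the log2 fold change of Adra1d moved from -0.85 to -0.08 (SE 0.30), that of Adra1b from -0.44 to -0.28 (SE 0.16) and that of Adra2c from -0.29 to 0.33 (SE 0.17), and 0 of 7 genes were called. Their standard errors became smaller, while that of Adra2a rose from 0.14 to 0.33 and that of Adrb1 from 0.26 to 0.37. Of all genes tested in males, 6.18% were called with these offsets, against 2.99% without them.

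**Figure D5:**
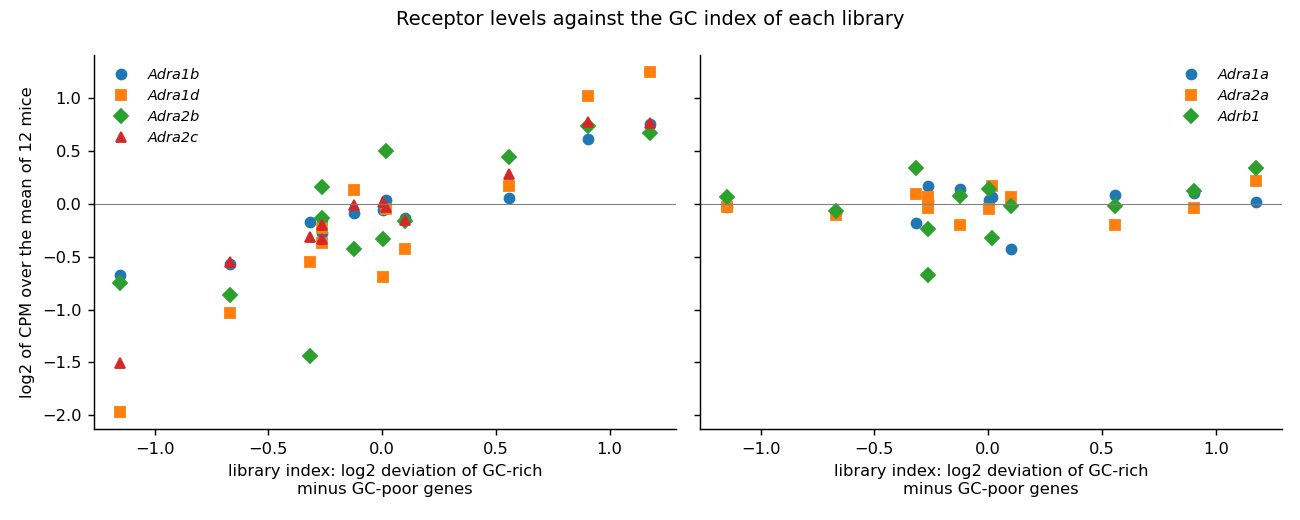
Log2 of each receptor gene's CPM over its mean of 12 mice (vertical axis) against the GC index of the library (horizontal axis, log2 units), with 1 point per mouse and gene. Adra1b, Adra1d, Adra2b and Adra2c on the left rise with the index, with r between 0.78 and 0.96, and Adra1a, Adra2a and Adrb1 on the right scatter around 0.

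A difference between the sexes in the change with morphine was tested as an interaction, with the female change subtracted from the male one. It had an unadjusted p under 0.05 for 0 of 7 receptor genes, against 2.94% of 19027 genes tested, and for 0 with DESeq2. All 7 values were below 0 with TMM, from -0.01 for Adra1a (SE 0.22) to -1.11 for Adra1d (SE 0.81), and the adjusted p values from edgeR's quasi-likelihood test were at least 0.985. Of the 19027 genes tested, 10345 were below 0. With scaling by total counts Adra1a was at 0.09 and Adra2a at 0.04, and with loess offsets Adra2c was at 0.43 (SE 0.22), Adra2a at 0.09, Adrb1 at 0.02 and Adra1d at -0.14 (SE 0.40). Without the library labelled morphine male 6, Adra1b was at -0.60, Adra1d at -1.34 and Adra2c at -0.52, and none of these had a p under 0.05. Without saline male 3 the count was 3 of 7 (Adra1b -0.87, Adra1d -1.63 and Adra2c -0.84), where 24.2% of all genes had such a p. With saline males 1 and 2 both left out it was 2 of 7 in the opposite direction (Adra1d 1.47 and Adra2c 1.42), against 17.8% of all genes.

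Between saline females and saline males, 0 of 7 receptor genes passed both thresholds, against 7.62% of 19027 genes tested. The count was also 0 at an unadjusted p under 0.05 alone, 1 with DESeq2 (Adra1d, -1.12) and 2 without a filter on low counts (Adra1b, -0.57, and Adra1d, -1.13). The log2 fold change of females over males was -1.10 for Adra1d (SE 0.57), -0.71 for Adra2b (SE 0.50), -0.59 for Adra2c (SE 0.43) and -0.55 for Adra1b (SE 0.29). Adra2a was at 0.02 (SE 0.13), Adra1a at -0.07 (SE 0.16) and Adrb1 at -0.16 (SE 0.24). With loess offsets Adra1d moved to -0.02 (SE 0.28), and Adra2c turned to 0.41 (SE 0.16) and was called, 1 of 7. The levels of the sexes overlapped for all 7, while 4.29% of genes tested did not overlap. Without saline male 3, Adra1b (-0.91), Adra1d (-1.64), Adra2b (-1.07) and Adra2c (-1.06) were called as lower in females, 4 of 7, against 36.7% of all genes. With saline males 1 and 2 both left out, Adra1d (1.48) and Adra2c (1.22) were called as higher, 2 of 7, against 13.6%.

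The genes that make, clear and transmit the noradrenergic signal were followed as a list of 39, of which 38 were tested. In the sex-combined fit 0 passed both thresholds, with 14 higher and 24 lower in morphine mice and a median log2 fold change of -0.02, the same as over all genes tested. The smallest p belonged to Slc6a2, the noradrenaline transporter gene. It ran from 2.62 to 7.56 CPM in morphine mice (median 5.65) and from 3.28 to 4.89 CPM in saline mice (median 3.96), and the groups overlapped. Its log2 fold change was 0.45 (SE 0.22, adjusted p of 1 from edgeR), and it passed with DESeq2 (0.45), when libraries were scaled by total counts (0.50) and with no low-count filter (0.44). Dbh, which encodes the enzyme that makes noradrenaline from dopamine, ran from 5.22 to 9.63 CPM in morphine mice and from 3.34 to 9.21 CPM in saline mice, with 0.18 (SE 0.26).

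By role, the 8 tested genes of noradrenaline synthesis, storage, uptake and breakdown had 5 higher and 3 lower in the sex-combined fit. The 5 Gi and Go genes that α2 receptors use ran from -0.11 (Gnai1) to -0.003 (Gnao1), with a median of -0.09 and 0 called, where 10682 of 18608 genes were below 0, and in females 3 of the 5 were above 0. The 7 Gq and phospholipase C genes of α1 receptors had a median of -0.04, the 9 adenylyl cyclases -0.001 and the 8 desensitization genes -0.04, all with 0 called.

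In females 0 of the 38 pathway genes passed and 20 were higher, and the smallest p belonged to Rgs4, which encodes a regulator that shortens G protein signals (-0.17, SE 0.09, adjusted p of 1 from edgeR). In males 1 of 38 passed, where 2.99% of all genes tested did, and it was Gnas, encoding the Gs protein that β receptors use. Gnas was at 58.9 to 64.0 CPM in morphine males and 67.0 to 83.3 CPM in saline males, with no overlap, as for 9.10% of genes tested, and a log2 fold change of -0.33 (SE 0.14, adjusted p of 1 from edgeR). It did not pass with exactTest, with DESeq2, with total counts (-0.20) or without the library labelled morphine male 6. In females Gnas was at -0.03 (SE 0.14), and the interaction of -0.28 (SE 0.21) did not pass.

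The summed level of the 6 markers of noradrenergic neurons overlapped between treatments, at 58.4 to 89.8 CPM in morphine mice and 54.7 to 83.1 CPM in saline mice. The 3 serotonergic markers lay at 40.3 to 67.4 CPM in morphine mice and 35.6 to 63.2 CPM in saline mice. Their part in the levels of the receptor genes was not tested.

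The genes whose log2 levels over the 12 mice were most like those of each receptor gene were taken from about 15055 genes with a mean of at least 1 CPM and are given as a description. Fbxw5 was among the genes most like Adra2c (r 0.99, rho 0.94). Adra1b was most like Ric8a (r 0.99) and Srebf2 (r 0.99), and Adra1d most like Ppp1r15a and Kctd15 (r 0.98 each). These 5 genes had GC contents of 54.8% to 58.7%. Adra2b was most like Rpusd4 (r 0.94) and Tmppe (r 0.93), Adra2a most like Exoc8 (r 0.89) and Capn3 (r 0.88), Adra1a most like Pcdha2 (r 0.87) and Hmbox1 (r 0.83), and Adrb1 most like D330023K18Rik (r 0.85) and Hscb (r 0.78). All points come from the same 12 libraries and share their depth and their balance of GC-rich and GC-poor genes.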

How the data were processed

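The authors extracted total RNA, selected poly-A RNA and sequenced 100-base single-end reads of all 12 libraries on 1 lane. Trimmomatic was used for trimming, STAR for alignment to mm10 and featureCounts for counting over Ensembl GRCm38 exons, and tool versions were not given in the sources used here. The deposited values are raw counts per gene: the study calls them normalized, but all are whole and library totals differ. Groups came from the treatment and sex in the labels, and 0 columns belonged to other samples.

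From these counts, every gene kept by filterByExpr went through edgeR's (4.0.16, R 4.3.3) two-sided quasi-likelihood test after TMM normalization, and p-values were adjusted by the Benjamini-Hochberg method over all genes tested. The sexes were fitted together with sex as a covariate and each alone. The interaction and the contrast of saline mice came from 1 fit of 4 group means. The study used exactTest, which takes no covariate, and its series text names the dam, which no label gives. Standard errors and 95% intervals come from the same test. Logs of levels used a prior count of 2. Positions, exon lengths and GC content came from GENCODE M21 on GRCm38, where all 55418 symbols were found. Alternatives were exactTest, DESeq2 1.42.0, its size factors, total counts, no filter, at least 10 counts in every library, no covariate, a replicate block, each mouse left out and, added after the data were seen, loess offsets (span 0.5) and saline males 1 and 2 both left out. The scripts were tested on simulated data.

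All 7 receptor genes are named. Of the pathway list, genes past both thresholds in a fit are named, otherwise the gene with the smallest p, with Slc6a2 and Dbh always named, and for likeness the 2 genes with the highest r, of which 1 is not reported here. The receptor genes and lists were chosen with earlier results of these data known. P-values measure the spread between single mice, some of which may be litter mates. Of the marker lists, those for neurons, spinal cord and some forebrain genes are reported, and over the 12 libraries the sums were 4320 to 5940 CPM for astrocytes, 21000 to 30600 for oligodendrocytes, 84.3 to 115 for microglia, 273 to 379 for vascular cells, 103 to 452 for blood, 15.9 to 65.5 for cerebellum, 64.0 to 149 for meningeal fibroblasts and 8.30 to 52.9 for choroid plexus.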

Additional observations from a re-analysis of the deposited data

Results flagged for a closer look

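Adra1a in morphine female 3, at 11.6 CPM, lay far below the other 5 morphine mice, with a gap to the nearest of them of 0.732 of the group's whole range, above Dixon's critical value of 0.625 for 6 samples. Chance flags about 1 in 20 groups. Without this mouse the log2 fold change of Adra1a in females was 0.21, against 0.04 with it, and it was not called in either fit.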

How the results depend on the processing

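In the sex-combined and female fits, 0 receptor genes were called under each alternative run. With at least 10 counts in every library, Adra2b was not tested and 6 receptor genes were. In males the count was 0 under the other tests, scalings, filters and offsets, 0 to 3 over the fits without 1 mouse and 3 with saline males 1 and 2 both left out, where Adra1b (0.55), Adra1d (1.73) and Adra2c (1.51) were reversed. For the interaction the count was 0 to 3 without 1 mouse and 2 with both saline males left out, with Adra1d (1.47) and Adra2c (1.42) reversed. For saline females against males it was 1 with DESeq2, 2 without a filter, 1 with loess offsets (Adra2c, reversed to 0.41), 2 with both saline males left out (Adra1d 1.48 and Adra2c 1.22, reversed) and 0 to 4 without 1 mouse, where 1 came without saline female 4. Pathway genes passing numbered 1 in the sex-combined fit with DESeq2, total counts or no filter, 4 with both saline males left out and 0 to 1 without 1 mouse, and 0 to 5 without 1 mouse in females. In males they numbered 0 with exactTest, DESeq2, DESeq2's size factors, no filter, the fit of all 12 mice or an adjusted p, 2 with total counts, 22 with both saline males left out and 0 to 12 without 1 mouse. Of all genes tested, 11.7% were called in the sex-combined fit with both saline males left out, and 4.44% in males with total counts. Without 1 mouse the share reached 7.95% in females (without saline female 4) and 28.6% in males (without saline male 3). For males with both saline males left out, it is given with the results for males. The pathway counts were not tested against these shares. Without length scaling 3 of 7 places in the order were kept. The causes were not tested. With total counts, the male median over all genes went from -0.06 to 0.06 (log2). Same-numbered mice did not deviate together (6 pairs, r from -0.36 to 0.18). This cannot tell whether any of them shared a litter or handling, because no label gives the dam. With the replicate block, 0 receptor genes and 0 pathway genes passed in the sex-combined fit, with Adra1b at -0.10, Adra1d at -0.10, Adra2b at 0.04 and Adra2c at 0.04, and 204 genes in all passed against 221. Adra2b rests on 5 to 30 counts in a mouse. For Adra1d the coefficient of variation over the 12 mice was 61.5%, against 15.8% from counting error.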
